A study of Mus musculus with 18 samples.

Results

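Fatty acids reach the hepatocyte from plasma, cross its membrane, travel through the cytosol on carrier proteins and are joined to coenzyme A before they can be burned or stored. The genes of these steps were described here in the liver of mice fed linseed oil or palm oil. They are 10 genes chosen by symbol: the membrane receptor Cd36, the transport proteins Slc27a2, Slc27a4 and Slc27a5, the binding proteins Fabp1, Fabp2, Fabp4 and Fabp5, and the acyl-CoA synthetases Acsl3 and Acsl4. All 10 were found, on 11 of the array's 39429 non-control features, among 31709 genes with such a feature.

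The LIN group was 8 male C57BL/6J mice, an inbred strain, that ate a high-fat diet made with linseed oil for 5 weeks. The PALM group was 10 male C57BL/6J mice that ate a high-fat diet made with palm oil for the same 5 weeks. All mice were 8 weeks old when the diets began and 13 weeks old at the end, and both diets drew 51.1% of energy from lipid, 16.7% from protein and 32.1% from carbohydrate. The LIN fat was 66.7% polyunsaturated, with alpha-linolenic acid at 49.7%, 22.5% monounsaturated and 9.7% saturated. The PALM fat was 8.8% polyunsaturated, 34.8% monounsaturated and 55.6% saturated. No group ate a low-fat diet, so a difference between the oils cannot be assigned to 1 of them. Mice were housed together, and the labels do not say which shared a cage or litter.

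Each liver was read on its own 1-colour array, from 1 µg of total RNA. Values below are log2 signal relative to the array's 75th percentile, differences are LIN minus PALM with the SE from limma, and a gene was called at a Benjamini-Hochberg adjusted p below 0.05 over all genes. The arrays lay on 5 slides that each held both diets. Each array had 17282 to 22473 features well above background, and precision is limited by how many arrays there were and by how far a signal stood over background. All 8 hepatocyte markers were above background on every array. RNA came from whole tissue, so fewer cells of a type and less RNA per cell cannot be told apart.

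CD36 is a scavenger receptor that takes up long-chain fatty acids, and in mouse liver its gene responds to several lipid-sensing nuclear receptors. The Slc27a proteins are transport proteins that also carry acyl-CoA synthetase activity: Slc27a2 acts on very long-chain fatty acids, Slc27a4 is best known from intestine and skin, and Slc27a5 is a liver protein that also activates bile acids. The Fabp proteins are small cytosolic carriers named for the tissue where each is abundant: Fabp1 for liver, Fabp2 for intestine, Fabp4 for fat and Fabp5 for epidermis. Acsl3 sits on the endoplasmic reticulum and lipid droplets, and Acsl4 prefers arachidonate and related polyunsaturated fatty acids.

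The sequences that show where a value comes from are given here for 2 members. Slc27a5 was the only member with a pair of features. The feature nearer the start of its transcript lies at mm9 chr7:13573924-13573983 on the minus strand, and it is shown because it checks the other one, which lies further along; it reads through in 1 frame without a stop codon.
Slc27a5 feature: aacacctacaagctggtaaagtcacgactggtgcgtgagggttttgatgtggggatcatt
Fabp1 is the member whose window around the start site, as given by RefSeq in GRCm38.p6, held a direct repeat of the kind that PPAR and RXR receptors bind. The 100 bases at chr6:71199779-71199878 on the plus strand, which end just before the start site, are printed with the repeat in capitals, from base -67 to base -55 relative to the start.
Fabp1 upstream: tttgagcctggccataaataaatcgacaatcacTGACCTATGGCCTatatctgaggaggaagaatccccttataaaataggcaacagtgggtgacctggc
The letters searched were AGGNCANAGGNCA, on both strands, where N is any base. Of the 10 members, 7 had a window, and 1 of these held the letters, against 0.381% of 32851 windows of the same length. The match describes the sequence and not a bound site.

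No member passed the test between the diets. Cd36 was higher on LIN by 0.71, Fabp5 was lower by 1.25 where its value could be used, and Slc27a4 was lower by 0.37. The other members that could be read differed by 0.38 or less in either direction, and Fabp1 was saturated. With spots left out that the image software had marked as non-uniform or as outliers, 9 members were tested and 0 were called, against 0.758% of all 15966 genes tested. At an unadjusted p below 0.05, 2 of these 9 (Cd36 and Slc27a4) and 10.1% of all genes passed. With marked spots kept, 10 members were tested and 0 were called, against 0.9% of 16559 genes, and at an unadjusted p below 0.05, 3 of the 10 (Fabp5 in addition) and 10.6% of all genes passed. Without Fabp1, the median difference of the members was 0.09 with marked spots left out (5 higher, 3 lower on LIN) and 0.02 with them kept (5 higher, 4 lower), beside -0.0038 and -0.0017 over all genes in the same fits. The hepatocyte markers had medians of 0.13 (6 of 7 higher) and 0.11 (7 of 8 higher) in these fits, with 0 called, and their part in the members' values was not tested. Over 57 combinations of processing and arrays, 0 gave a called member.

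**Figure D1:**
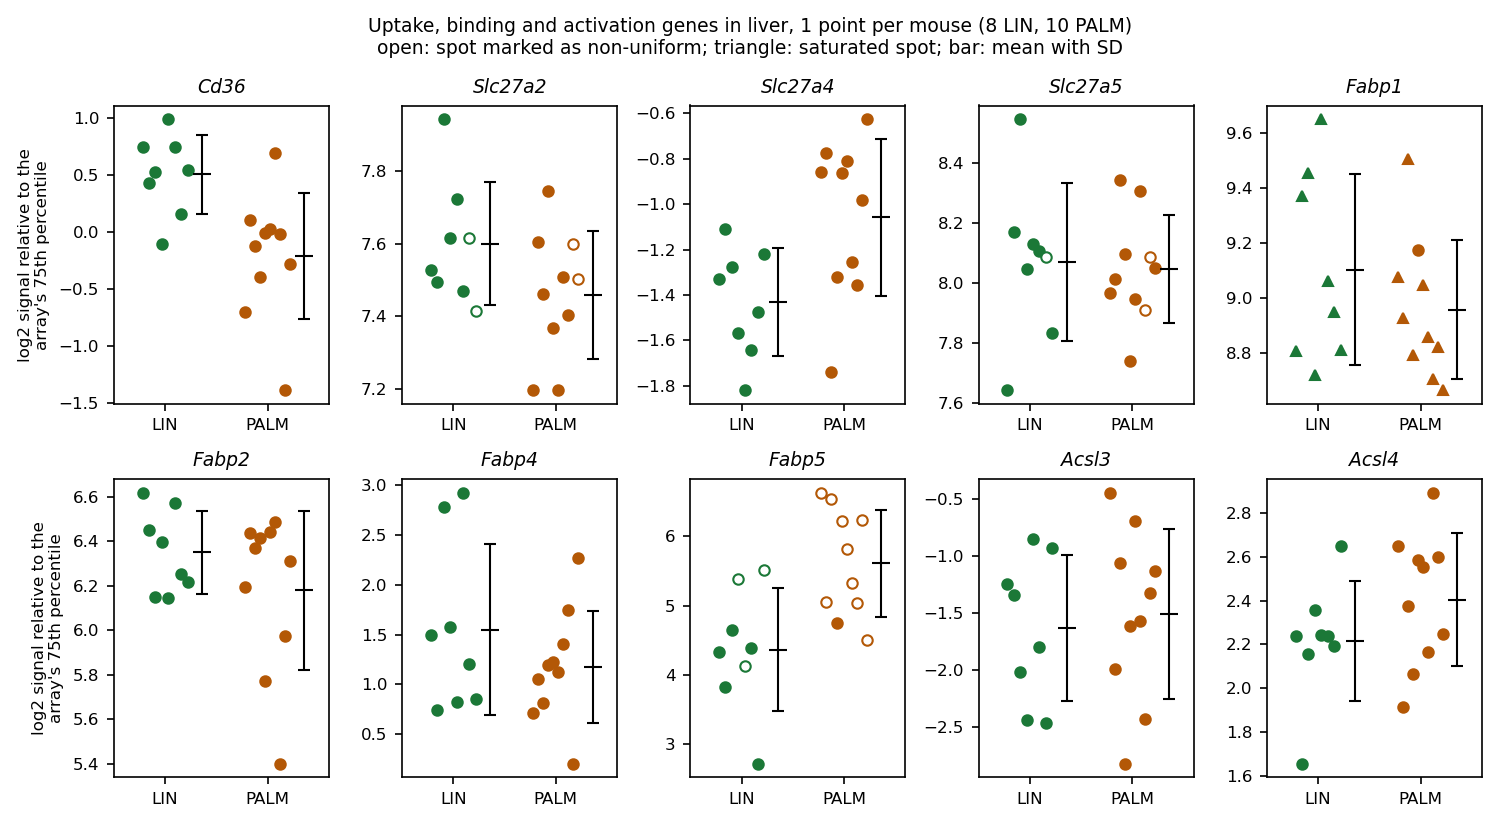
Signal of each of the 10 genes (log2, relative to the array's 75th percentile), 1 point per mouse, LIN left of PALM in each panel, with the mean and SD beside the points. Open points are spots marked by the image software and triangles are saturated spots. The groups overlap in every panel; 5 PALM points for Cd36 lie below every LIN point, and 5 PALM points for Fabp5 lie above every LIN point.

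Cd36 was the uptake gene with the larger difference. Its feature lies at mm9 chr5:17288600-17288659 on the minus strand, and none of its spots was marked or saturated. On LIN the lowest value was -0.11, the median 0.53 and the highest 0.99. On PALM the lowest was -1.39, the median -0.08 and the highest 0.69. The groups overlapped: 3 LIN mice lay above every PALM mouse and 5 PALM mice below every LIN mouse, while LIN replicate 4 and PALM replicate 7 stood nearest to the other diet. The means were 0.50 ± 0.35 (SD, n = 8) on LIN and -0.21 ± 0.55 (SD, n = 10) on PALM. The difference of 0.71 ± 0.21 (95% interval 0.27 to 1.16), which is 1.64-fold, did not pass (limma adjusted p = 0.168).

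Cd36 was higher on LIN within each of the 5 slides, by 0.12 to 1.38. With slide as a fixed block its adjusted p from limma was 0.130, and with slide as a random block 0.0876. A random block with marked spots kept, a fit that was not planned, gave a limma adjusted p of 0.0798. In the authors' deposited values the difference was 0.58 ± 0.16, with an adjusted p of 0.135 in the same limma fit. It ranged from 0.50 to 0.81 over all combinations, with adjusted p from limma between 0.0559 (without PALM replicate 7, marked spots kept) and 0.486, so its direction held and it was never called. Of the 8 fat cell markers, Cfd (adipsin) was picked for its relation with Cd36 over the 18 mice. Pearson r was 0.737 and Spearman rho 0.761 of deviations from the diet means (permutation p = 0.00027 and 0.0005). Without the 2 mice farthest from the Cfd median, r was 0.657. Cfd was picked after the values were seen, and these p are not adjusted for the choice among markers. On the 3 arrays where the fat cell markers Adipoq, Plin1 and Retn were all above background, Cd36 read 0.52 and 0.74 on LIN and -0.29 on PALM, inside the range of the other mice of each diet. Cfd was higher on LIN by 2.54 ± 0.88 and was not called (limma adjusted p = 0.279), and its part in the Cd36 difference was not tested.

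Among the transport proteins, Slc27a4 was the member lower on LIN. Its feature is at mm9 chr2:29672983-29673042 on the plus strand. On LIN its lowest value was -1.82, the median -1.40 and the highest -1.11. On PALM its lowest value was -1.74, the median -0.92 and the highest -0.62. All 8 LIN mice lay below the PALM median, and 6 of 10 PALM mice lay above every LIN mouse, but the other 4 PALM mice lay inside the LIN range. The difference was -0.37 ± 0.14 (95% interval -0.66 to -0.08; limma adjusted p = 0.327). It was lower on LIN in 4 of 5 slides, between -0.98 and 0.11, and was -0.24 in the authors' deposited values. The feature was dim, though above background on every array: its processed signal ran from 37 (PALM replicate 3) to 126 (PALM replicate 10) intensity units. With another background correction (normexp) the difference was -0.25.

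Slc27a2 and Slc27a5, the transport proteins best known from liver, differed little. For Slc27a2 (mm9 chr2:126413890-126413949, plus strand) the lowest, median and highest values were 7.41, 7.57 and 7.94 on LIN. On PALM they were 7.19, 7.48 and 7.74. The groups lay over each other except for LIN replicate 3 at the top and 4 PALM mice at the bottom. The spot was marked on 2 LIN and 2 PALM arrays. Without them the difference was 0.19 ± 0.10 (n = 6 LIN and 8 PALM, limma adjusted p = 0.569), and with them 0.14 ± 0.09 (95% interval -0.04 to 0.32, limma adjusted p = 0.601).

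Slc27a5 gave the smallest difference of the members. Its brighter feature (mm9 chr7:13573701-13573760, minus strand) ran from 7.64 through a median of 8.10 to 8.55 on LIN. On PALM it ran from 7.74 through 8.03 to 8.34. The PALM mice all fell inside the LIN range. The difference was 0.02 ± 0.10 with marked spots kept (95% interval -0.19 to 0.24, limma adjusted p = 0.965), and the feature whose sequence is printed above gave 0.01 ± 0.08 (95% interval -0.16 to 0.19, limma adjusted p = 0.974). The interval of the brighter feature holds no change of more than 0.24 in either direction, but some of its spots held saturated pixels. None was counted as saturated, yet the share of saturated pixels was 46.8%, 17.2% and 13.4% on PALM replicates 7, 9 and 10. On LIN replicate 7 it was 3.2%. Whether this lowered the PALM values was not tested. The printed feature had no saturated pixels. The pair followed each other over the 18 mice (Pearson r = 0.936, Spearman rho = 0.80 of deviations from the diet means). The permutation p was 1e-05 for r, the smallest that 100000 resamples can give, and 0.00014 for rho. Without the 2 mice farthest from the median of the printed feature, r was 0.859. The printed feature was marked on 4 of 8 LIN and 7 of 10 PALM arrays, against 1 and 2 for the brighter one. Both read the same transcript, so this agreement is between 2 readings of 1 RNA.

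**Figure D2:**
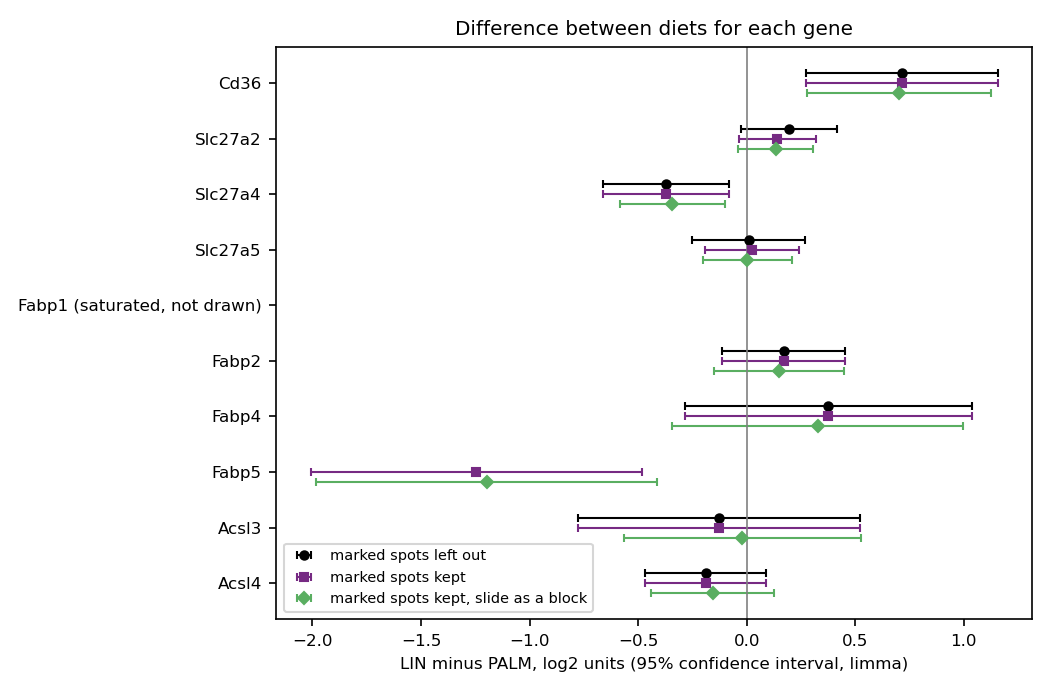
Difference between the diets for each gene, LIN minus PALM in log2 units, with its 95% confidence interval from limma, in 3 fits: marked spots left out, marked spots kept, and marked spots kept with slide as a fixed block. The intervals of Cd36, Fabp5 and Slc27a4 exclude 0 before adjustment in each fit drawn, and those of the other genes include it. Fabp5 is drawn only in the fits with marked spots kept, since it could not be tested with them left out. Fabp1 is not drawn because its spots were saturated.

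The binding proteins included the member that could not be measured at the bright end and the member with the largest difference. Fabp1, the main fatty acid carrier of hepatocytes (mm9 chr6:71154906-71154965, plus strand), was saturated on 8 of 8 LIN and 9 of 10 PALM arrays. The share of saturated pixels in its spot was 80.4% to 100% on LIN and 45.5% to 100% on PALM. On PALM replicate 5, the array not counted as saturated, the median pixel was 65294, beside a scanner ceiling of 65535. The scaled values ran from 8.72 to 9.65 on LIN and from 8.66 to 9.51 on PALM. A saturated spot holds no more than a lower bound, so no fold is given, and whether Fabp1 differed between the diets could not be read from these arrays.

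Fabp5 (mm9 chr3:10016185-10016244, plus strand) was lower on LIN, in spots that were marked unequally between the diets. The image software marked its spot as non-uniform on 3 of 8 LIN and 9 of 10 PALM arrays. Only 1 PALM value (replicate 4, 4.76) was unmarked, so the gene could be tested only with marked spots kept. On LIN the lowest value was 2.72, the median 4.36 and the highest 5.51. On PALM the lowest was 4.50, the median 5.57 and the highest 6.63. All 8 LIN mice lay below the PALM median and all 10 PALM mice above the LIN median, with 5 LIN mice under every PALM mouse. The marked LIN spots, on replicates 4, 5 and 8, read 5.38, 4.13 and 5.51, and the 5 unmarked ones 2.72 to 4.65.

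The difference in Fabp5 was -1.25 ± 0.36 (95% interval -2.01 to -0.48), which is 2.37-fold lower on LIN, and did not pass (limma adjusted p = 0.147). The authors' deposited values gave -1.25 ± 0.37 in the same limma fit (adjusted p = 0.170). It was lower on LIN in 4 of 5 slides, between -1.89 and 0.14, slide 5 being the exception with LIN replicate 8. Leaving out 1 array at a time moved it between -1.41 and -1.01, with the smallest adjusted p from limma, 0.0749, without LIN replicate 8. Fabp5 is known from macrophages as well as hepatocytes, and the macrophage and Kupffer cell markers are given beside it. Of 8 of them tested with marked spots kept, 0 were called, against 0.9% of all genes in this fit, and 7 were lower on LIN. The median difference of the 8 was -0.13, beside -0.0017 over all genes, of which 49.4% were higher on LIN. The summed signal of these markers was 55.0 to 133 times the array's 75th percentile on LIN and 52.9 to 110 times on PALM. Their part in the Fabp5 values was not tested.

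**Figure D3:**
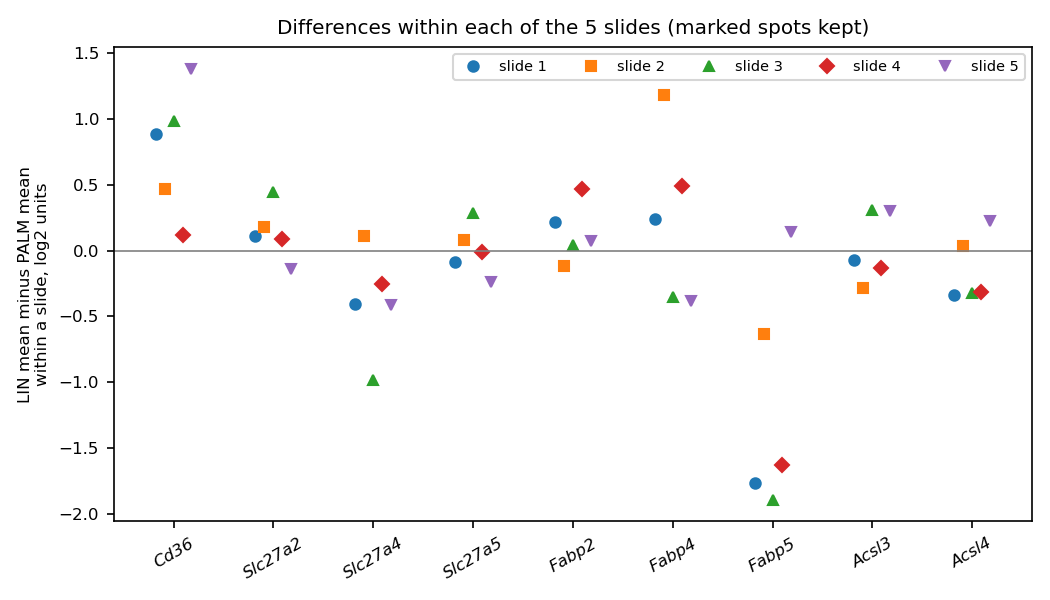
Difference between the diet means within each of the 5 slides, LIN minus PALM in log2 units, with marked spots kept. The 9 members with no spot counted as saturated are drawn, and a slide holds 1 or 2 arrays of a diet. Cd36 is above 0 on all 5 slides, and Fabp5 and Slc27a4 are below 0 on 4 of them.

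Fabp4 (mm9 chr3:10204452-10204511, minus strand) varied more between mice than between diets. On LIN its lowest value was 0.74, the median 1.35 and the highest 2.93. On PALM its lowest value was 0.20, the median 1.16 and the highest 2.27. The groups overlapped, and the 3 highest values of all belonged to LIN replicates 3 and 6 and PALM replicate 10. The difference was 0.38 ± 0.31 (95% interval -0.28 to 1.04, limma adjusted p = 0.752).

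Those 3 arrays were also the ones on which the fat cell markers Adipoq (adiponectin), Plin1 (a coat protein of fat cell lipid droplets) and Retn (resistin) were all above background. Adipoq read -0.42 and -0.49 on the 2 LIN arrays and -1.39 on the PALM array. On the remaining arrays it lay between -6.96 and -3.97 on LIN and between -6.98 and -4.76 on PALM. LIN replicate 4, kept among these, had Adipoq (-3.97) and Retn (-4.67) above background but not Plin1, and its Fabp4 was 1.58. Fabp4 on these remaining arrays averaged 1.12 ± 0.36 (SD, n = 6) on LIN and 1.05 ± 0.44 (SD, n = 9) on PALM. Without the 3 arrays, an alternative chosen after the values were seen, the Fabp4 difference was 0.06 ± 0.20 (limma adjusted p = 0.980). The 3 arrays held the 3 highest Fabp4 values, 2 of them on LIN, so leaving them out lowers the difference whatever the reason. The part of fat cells in the Fabp4 values was not tested. Without these arrays Cd36 stayed at 0.66 ± 0.25 (limma adjusted p = 0.486) and Fabp5 at -1.42 ± 0.41 with marked spots kept (limma adjusted p = 0.207). Of the 8 fat cell markers, 4 were above background on every array and 0 on none. Their summed signal, 81.3 to 284 times the 75th percentile on LIN and 108 to 256 times on PALM, came mostly from Pck1, a gluconeogenic gene that hepatocytes also express. Without Pck1 the sum was 2.92 to 37.6 times on LIN and 1.53 to 11.4 times on PALM. Fabp4 is also known from endothelial cells. Against 0.758% of all genes with marked spots left out, 0 of 7 endothelial markers were called, with a median difference of -0.01. Their summed signal was 21.0 to 24.1 times the 75th percentile on LIN and 17.7 to 27.6 times on PALM.

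**Figure D4:**
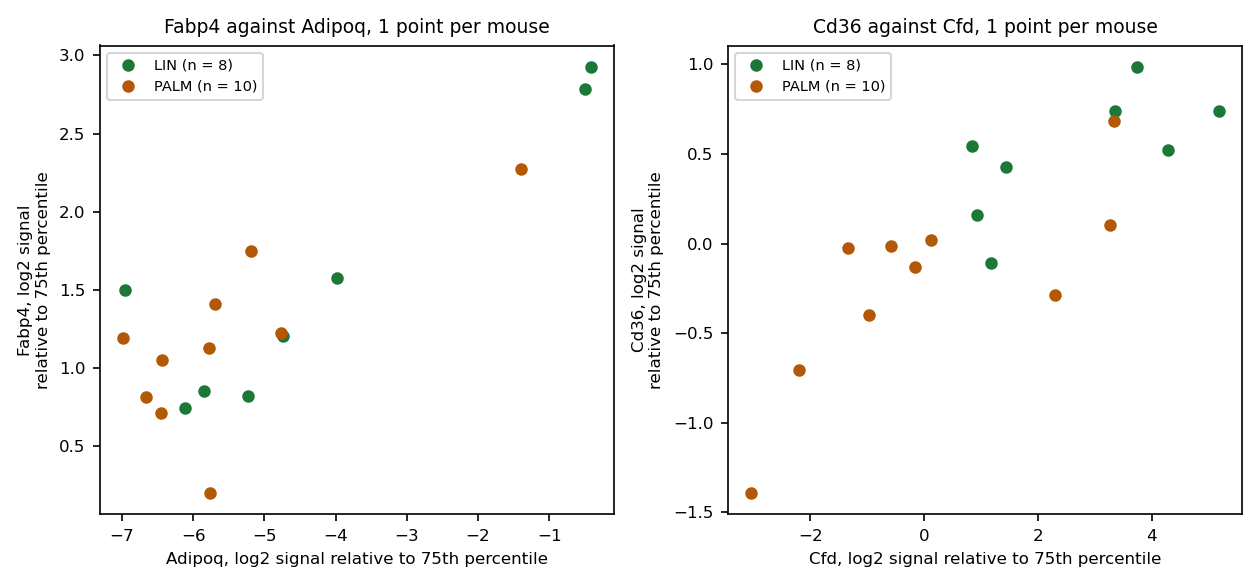
Left: Fabp4 against the fat cell marker Adipoq, 1 point per mouse, both axes in log2 signal relative to the array's 75th percentile; 3 mice (2 LIN, 1 PALM) stand apart at the upper right with Adipoq between -1.39 and -0.42. Right: Cd36 against Cfd on the same scale, where LIN points lie toward the upper right and the PALM point at -1.39 for Cd36 has the lowest Cfd, -3.04.

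Fabp2, the carrier named for intestine (mm9 chr3:122602276-122602335, plus strand), was above background on all 18 arrays. On LIN it ran from 6.14 through a median of 6.32 to 6.62. On PALM it ran from 5.40 through 6.34 to 6.49. The diets overlapped over most of their range, and 3 PALM mice lay below every LIN mouse. The difference was 0.17 ± 0.14 (95% interval -0.11 to 0.45, limma adjusted p = 0.733), and 0.08 without PALM replicate 8. Of 7 enterocyte markers, 4 (Alpi, Cdh17, Lct and Sis) were above background on no array, Vil1 and Cdx2 on 1 array each, and Anpep, which is not specific to intestine, on every array.

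The acyl-CoA synthetases did not separate the diets. Acsl4 (mm9 chrX:138752591-138752650, minus strand) ran from 1.65 through a median of 2.24 to 2.65 on LIN. On PALM it ran from 1.92 through 2.47 to 2.89. Of 8 LIN mice, 7 lay below the PALM median, and the groups overlapped. The difference was -0.19 ± 0.13 (95% interval -0.47 to 0.09, limma adjusted p = 0.687), lower on LIN in 3 of 5 slides. Acsl3 (mm9 chr1:78703500-78703559, plus strand) ran from -2.47 through -1.57 to -0.85 on LIN. On PALM it ran from -2.82 through -1.45 to -0.44, a wider spread that held every LIN mouse. Its feature was dim, though above background on every array. The processed signal ran from 24.7 (PALM replicate 4) to 118 (PALM replicate 1) intensity units. The difference was -0.13 ± 0.31 (95% interval -0.78 to 0.52, limma adjusted p = 0.936), lower on LIN in 3 of 5 slides. A fixed slide block gave -0.02, and leaving out 1 array at a time moved it between -0.27 (without PALM replicate 4) and -0.0066 (without LIN replicate 7).

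No pair of members passed a test of moving together from mouse to mouse. Among the 9 members with no spot counted as saturated, deviations from the diet means were compared in 36 pairs over the 18 mice. After Benjamini-Hochberg adjustment 0 pairs passed, within slides as well. At an unadjusted permutation p below 0.05 there were 4 pairs by Pearson r, 7 by Spearman rho and 8 by Pearson r within slides. The smallest p within slides was that of Fabp5 with Acsl4 (r = 0.675, permutation p = 0.00242, adjusted 0.0871). Resampling shuffled the 18 centred values freely, although centring on slide and diet ties them together. The p within slides can therefore be too small, and the 8 pairs too many. Pearson r ran from -0.61 (Fabp2 with Acsl4) to 0.56 (Slc27a2 with Slc27a5). For Fabp2 with Acsl4, Spearman rho was -0.57, and the adjusted permutation p was 0.228 for r and 0.209 for rho. Without the 2 mice farthest from the Fabp2 median, r was -0.46. For Slc27a2 with Slc27a5, Spearman rho was 0.54, and the adjusted permutation p was 0.228 for r and 0.211 for rho. Without the 2 mice farthest from the Slc27a2 median, r was 0.39. Of the 36 pairs, 16 were positive.

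Other genes of uptake, binding and activation were taken from a list of 34, of which 25 were tested with marked spots left out. None was called (limma), against 0.758% of all genes in this fit, and 5 had an unadjusted p below 0.05, against 10.1%. Of the 25, 18 were higher and 7 lower on LIN. Their median difference was 0.12, beside -0.0038 over all genes. Acss3, a mitochondrial synthetase that acts on short-chain acids such as propionate, was at 0.85 ± 0.25 (limma adjusted p = 0.170). Acsm5, a medium-chain synthetase, was at 0.23 ± 0.07 (limma adjusted p = 0.201). Acsl1, the main long-chain acyl-CoA synthetase of liver, was at 0.29 ± 0.09 (n = 7 LIN and 9 PALM, limma adjusted p = 0.241). Slc27a3, a relative of the transport proteins above, was at -0.33 ± 0.13 (limma adjusted p = 0.350). These were the 4 with the smallest p, and none passed.

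Of 12 listed nuclear receptors and partners that act on these genes, 11 were tested. Of these, 0 were called and 2 had an unadjusted p below 0.05, against 0.758% and 10.1% of all genes in this fit. The median difference of the 11 was 0.03. The 4 with the smallest p included Ppara, the fatty acid receptor of hepatocytes, at 0.29 ± 0.09 (limma adjusted p = 0.166) and Pparg at 0.44 ± 0.19 (limma adjusted p = 0.429). The others were Nr1i3, which encodes the receptor CAR, at 0.17 ± 0.10 (limma adjusted p = 0.621) and Rxra, the shared partner of PPAR receptors, at -0.10 ± 0.08 (limma adjusted p = 0.740). With marked spots kept, Ppara, then read from a brighter feature, was at 0.15 ± 0.07 (limma adjusted p = 0.456) and Pparg at 0.44 ± 0.19 (limma adjusted p = 0.409).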

How the data were processed

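Per the file headers, the authors extracted spot intensity with Agilent Feature Extraction 9.5.3.1, and per the submitters' processing notes limma was used as well. The processed signal is background-subtracted and not scaled between arrays. The authors' deposited log2 value table, whose scaling and centring are not given in the sources used here, served as an alternative.

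The processed signal was taken to log2 and the array's 75th percentile subtracted (117 to 204 intensity units) over non-control features. Marked spots (238 to 1703 per array) were left out or kept, and saturated spots (63 to 111 per array) kept. A feature needed to be well above background on 8 arrays and have 6 values in each diet; the brightest stood for a gene. Names were updated through RefSeq GRCm38.p6 (26055 features by accession, 3195 by symbol, 930 by synonym, 9249 kept). Feature positions are the mm9 ones of the files. Diets, taken from sample titles, were compared in R 4.3.3 with limma 3.58.1 (two-sided, no covariate), tested on simulated data. All members are named; of other lists, called genes and up to 4 more with the smallest p. Slides follow the barcodes; 3 arrays had none in the header and took it from the deposited name. Likeness used 100000 resamples. Members and lists were chosen with earlier results of these data known. Alternatives were other background corrections, scalings, filters and feature choices, slide and replicate number as blocks, and leaving out arrays.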

Additional observations from a re-analysis of the deposited data

How the results depend on the processing

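No member was called in any of the 57 combinations in which it was tested; Fabp5 was tested in 27 and Slc27a2 in 50. The difference in Fabp4 was 0.06 without the 3 arrays with fat cell markers, which held its 3 highest values, and 0.38 with them. The 121 genes called became 68 with normexp background correction, 42 with the percentile over unmarked spots, 44 with no filter on dim features, 200 with slide as a random block, 41 without the 3 arrays with fat cell markers (chosen after seeing the data), and 51 to 142 with 1 array left out. The labels number the mice of both diets, but same-numbered mice correlated at -0.23 to 0.49 and 2 of 8 correlated best with their own number, so the numbers were not taken as pairs; with the replicate number as a block 18 genes were called, and Cd36 was at 0.56. The scaled value of the saturated Fabp1, which is not read as a difference, was -0.030 with quantile scaling. Signs turned for Acsl3 (0.0068 without the 3 arrays) and for Slc27a5 (-0.045 with quantile scaling, -0.026 with the percentile over unmarked spots, -0.0068 with slide as a fixed block, -0.018 in the authors' values, and -0.070 to 0.081 with 1 array left out); the cause was not tested. Slc27a2 could be fitted with marked spots left out in 12 of 18 omissions of 1 array, since the rest left under 6 values in LIN. Saturation limits Fabp1, saturated pixels on some arrays limit the brighter feature of Slc27a5, and marking limits Fabp5.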

Other observations

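Cd36 followed Cfd, a serine protease of the complement pathway that fat cells secrete, from mouse to mouse, as given above. On LIN, Cfd ran from 0.84 through a median of 2.39 to 5.17. On PALM it ran from -3.04 through -0.37 to 3.34. The groups overlapped between 0.84 and 3.34, and the PALM median lay below every LIN mouse. Adjusted over the 9 members with no spot counted as saturated, the permutation p of the relation with Cd36 was 0.00243 for Pearson r and 0.0045 for Spearman rho. Cfd was picked for this relation after the values were seen, and this adjustment does not cover the choice among the fat cell markers. After centring on slide as well as diet, r of Cd36 with Cfd was 0.788. None of the other 8 members passed with Cfd after this adjustment. Acsl4 (r = -0.49, rho = -0.59, adjusted permutation p = 0.131 and 0.0519), Fabp2 (r = 0.45, rho = 0.56, adjusted permutation p = 0.131 and 0.0556) and Fabp4 (r = 0.48, rho = 0.48, adjusted permutation p = 0.131 and 0.107) came nearest. The highest Cfd value, 5.17 on LIN replicate 1, was on an array where none of Adipoq, Plin1 and Retn was above background.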
